A study of Mus musculus with 8 samples.

Results

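The 10 genes described here encode the MHC class II molecules of the mouse and the machinery that loads them with peptide. They were chosen by name, as the rows of the deposited table for Cd74, H2-Aa, H2-Ab1, H2-Eb1, H2-DMa, H2-DMb1, H2-DMb2, H2-Oa, H2-Ob and Ciita, and all 10 were found among its 23156 genes. The table gives ribosome footprints, the pieces of mRNA left under ribosomes after nuclease treatment, in naive CD4+ T cells of C57BL/6 mice, either wildtype (WT) or Mettl3 knockout (KO), with 2 footprint libraries per genotype. All cells were held in cycloheximide at 0.1 mg/ml for 1 min. Mettl3 encodes the enzyme that places the m6A mark on mRNA. The age of the animals, the Cre or other means by which Mettl3 was deleted, the number of animals per library and the purity of the cells were not given in the sources used here, so p-values reflect only how far these libraries differ among themselves, and that spread may be technical. The input RNA libraries were not analysed here, and a footprint level therefore joins the amount of an mRNA and its translation.

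Class II molecules present peptides from endosomes to CD4+ T cells. Each is a pair of an alpha and a beta chain, which the invariant chain, encoded by Cd74, escorts to endosomes while filling the peptide groove. Proteases trim the invariant chain to a short remnant, the dimer H2-DM exchanges that remnant for a peptide, and the dimer H2-DO restrains H2-DM. The co-activator Ciita, with factors of the RFX, NF-Y and CREB families at the promoters, drives transcription of this set. B cells and dendritic cells carry class II constitutively, and mouse CD4+ T cells are not a classical source of it. C57BL/6 mice make the pair I-A, encoded by H2-Aa and H2-Ab1, but lack a working alpha chain for I-E, whose beta chain is H2-Eb1.

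Of the 10 genes, 8 lie on chromosome 17 (GENCODE M21, GRCm38), from H2-Oa at 34092340 to 34095234 to H2-Eb1 at 34305867 to 34316674. H2-DMa lies at 34119541 to 34139101, H2-DMb2 at 34143307 to 34151555, H2-DMb1 at 34153072 to 34160230, H2-Ob at 34238903 to 34254414, H2-Ab1 at 34257689 to 34269419 and H2-Aa, on the minus strand, at 34282744 to 34287823.

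Class II promoters are known for a shared layout, in which an X box bound by RFX and CREB factors stands a short way before a Y box bound by NF-Y. RefSeq's promoter table (GRCm38.p6) held 7 of the 10 genes, and the stretch from 130 to 21 bases before the start is shown for 5 of them. These 5 were chosen because they matched the letters searched in different degrees and did not share 1 pattern over the libraries. The capitals mark the Y box core GATTGG, the half-site AGNAAC of the X box and the letters ATGATG of its second part, each searched on both strands over the whole 300 bases of an entry, with CCAATC being the core on the other strand. The motif letters were chosen with the sequences in view.
H2-Aa, chr17:34287844-34287953, minus strand: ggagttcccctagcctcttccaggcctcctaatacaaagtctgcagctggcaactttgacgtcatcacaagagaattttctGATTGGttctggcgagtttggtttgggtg
H2-Eb1, chr17:34305737-34305846, plus strand: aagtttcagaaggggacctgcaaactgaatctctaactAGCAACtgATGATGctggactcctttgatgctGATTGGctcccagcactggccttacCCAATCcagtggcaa
H2-DMb1, chr17:34153061-34153170, plus strand: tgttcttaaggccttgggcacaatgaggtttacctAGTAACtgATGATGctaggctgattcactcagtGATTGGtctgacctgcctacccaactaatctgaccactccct
H2-Ob, chr17:34238775-34238884, plus strand: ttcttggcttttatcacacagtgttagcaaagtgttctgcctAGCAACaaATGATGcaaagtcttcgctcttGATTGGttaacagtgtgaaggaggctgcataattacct
H2-Oa, chr17:34092249-34092358, plus strand: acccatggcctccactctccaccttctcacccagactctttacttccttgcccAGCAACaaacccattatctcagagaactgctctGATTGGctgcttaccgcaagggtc

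The X half-site followed within 40 bases by the Y core was found in H2-Eb1, H2-DMb1, H2-Ob and H2-Oa, 4 of the 7 genes, and in 0.752% of all 32851 promoter entries. The Y core alone was in an entry of all 7 genes and in 16.1% of entries, the half-site alone in 5 genes and 48.1% of entries, and ATGATG in 4 genes and 11.2% of entries. H2-DMa had 2 entries, neither with the paired layout, and its Y core lay outside the stretch shown for the other genes. These are matches of letters only, and a promoter without a match, as that of H2-Aa for the half-site, may still hold an X box of other letters.

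Estimated depths were 5850000 reads for WT 1, 3410000 for WT 2, 5790000 for KO 1 and 2930000 for KO 2. Levels are in FPKM, which divides the fragments on a gene by its length and by the reads of the library. Footprints lie mostly on coding sequence, which is 792 of 1669 bases of the main H2-Eb1 transcript and 768 of 1128 of that of H2-Aa. Levels of different genes can therefore be compared only roughly. Mettl3 itself, the check of the labels, stood at 24.5 and 21.1 FPKM (WT) against 2.44 and 3.32 FPKM (KO). Markers of T cells were high in all libraries, with 1355, 1530, 1355 and 1424 FPKM summed over 16 genes in WT 1, WT 2, KO 1 and KO 2. Cd4 was at 82.1 to 101 FPKM and Cd8a at 0.369 to 0.551 FPKM.

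Markers of B cells, which express class II, differed between libraries. Summed over the 21 listed genes, they came to 81.1 and 61.8 FPKM (WT) against 25.8 and 59.0 FPKM (KO). Of the 21, 14 were lowest in KO 1, and of the 15 tested, 11 were. Of all tested genes, 39.8% were lowest in KO 1, in which genes other than small RNAs made up 44.3% of the summed FPKM, against 50.6% to 63.0% in the other libraries. Ms4a1, which encodes CD20, was at 5.98, 2.81, 0.906 and 4.64 FPKM in WT 1, WT 2, KO 1 and KO 2. Pax5, a defining transcription factor of B cells, was listed at 0 in all 4 libraries. In bulk samples, fewer cells of a type and less RNA per cell cannot be told apart.

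By the mean over the 4 libraries, the invariant chain and the classical beta chains H2-Ab1 and H2-Eb1 were the most abundant of the set, although in KO 1 H2-DMa (20.2 FPKM) was above H2-Eb1 (11.5 FPKM). With the alpha chain H2-Aa, they did not separate the genotypes, and were lowest in KO 1 and close to each other in WT 1 and KO 2. Cd74, on chromosome 18 at 60803848 to 60812652, stood at 79.3 and 49.6 FPKM (WT) against 30.8 and 79.9 FPKM (KO). H2-Ab1, the I-A beta chain, stood at 66.0 and 47.6 FPKM (WT) against 22.5 and 58.3 FPKM (KO). For both genes the KO libraries lay on either side of at least 1 WT library, so the groups overlapped.

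H2-Eb1, the I-E beta chain, stood at 32.7 and 23.8 FPKM (WT) against 11.5 and 30.3 FPKM (KO). H2-Aa, the I-A alpha chain, stood at 13.4 and 9.32 FPKM (WT) against 2.99 and 12.8 FPKM (KO). The order of the libraries was WT 1, KO 2, WT 2 and KO 1 for H2-Ab1, H2-Eb1 and H2-Aa, and for Cd74 the same with WT 1 and KO 2, which differed by less than 1 FPKM, in reverse. KO 1 and KO 2 differed by a factor of 2.59 for Cd74, 2.59 for H2-Ab1, 2.65 for H2-Eb1 and 4.28 for H2-Aa. Ratios of KO 2 to KO 1 at least that large were found at 1.43%, 1.45%, 1.39% and 0.431% of the tested genes, whose median ratio was 1.08.

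**Figure D1:**
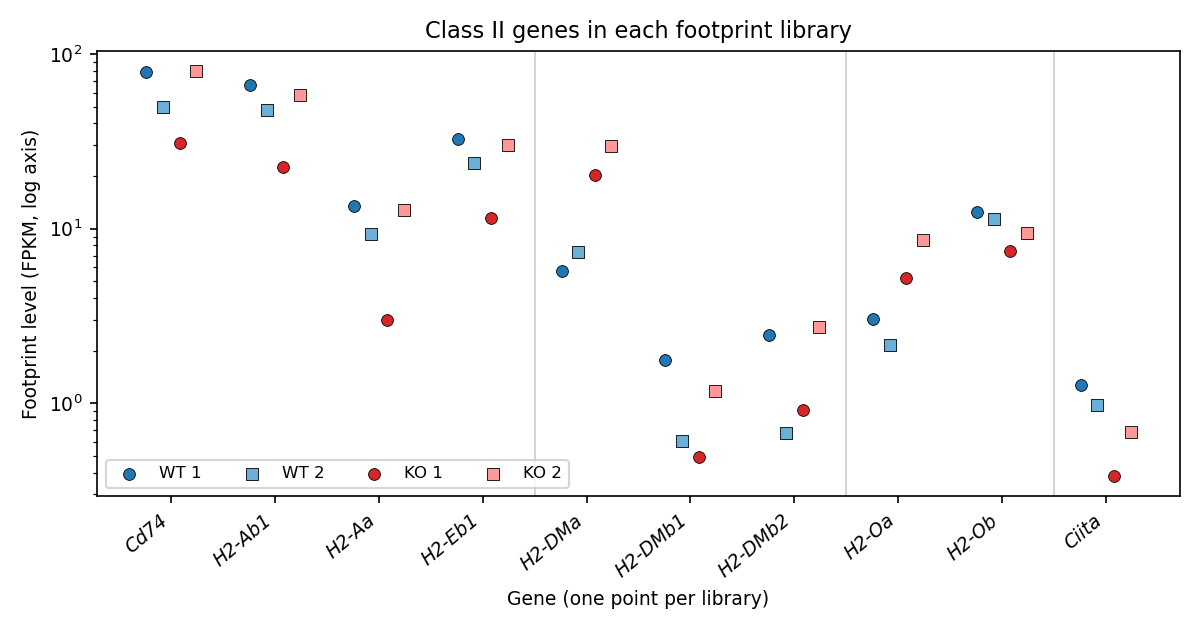
Footprint level of each class II gene (horizontal axis) in FPKM on a log axis, with 1 point per library (blue WT, red KO, circles library 1, squares library 2). The 4 genes at the left have KO 1 lowest and KO 2 near WT 1, whereas both KO points of H2-DMa and H2-Oa lie above both WT points.

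The beta chains H2-Eb1 and H2-Ab1 kept a nearly fixed proportion while their level moved, and Cd74 and H2-Aa varied more. H2-Eb1 was 0.494, 0.50, 0.509 and 0.52 times H2-Ab1 in WT 1, WT 2, KO 1 and KO 2, a range of 1.05-fold, although H2-Ab1 itself spanned 22.5 to 66.0 FPKM. Cd74 was 1.20, 1.04, 1.37 and 1.37 times H2-Ab1. H2-Aa, the partner of H2-Ab1 in the same dimer, was listed at only 0.203, 0.196, 0.133 and 0.22 times its level.

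Set against the summed B cell markers of the same library, the level of H2-Ab1 was 0.814 and 0.771 (WT) against 0.873 and 0.989 (KO). This ratio spanned 1.28-fold, and that of H2-Eb1 spanned 1.33-fold. Those of Cd74 and H2-Aa spanned 1.69-fold and 1.87-fold. The chains and the summed markers were both lowest in KO 1, but single markers differed in KO 2. Most of the listed markers, Ms4a1 among them, were, like the chains, higher in KO 2 than in WT 2. Ly6d, at 16.0, 17.1, 5.93 and 7.14 FPKM in WT 1, WT 2, KO 1 and KO 2, was low in both KO libraries. Pou2af1 (7.43, 8.61, 2.39 and 3.90 FPKM) and Cd72 (6.88, 6.76, 2.32 and 4.26 FPKM) were also below both WT libraries in both KO libraries. The part of the B cell markers in the levels of the chains was not tested.

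In the test of KO against WT, which took in 9271 genes whose mean reached 1 FPKM, 9 of the 10 class II genes were included. Of these 9, 1 passed the threshold, H2-DMa, against 2.22% of all tested genes (limma, Benjamini-Hochberg adjusted p under 0.05). Thus 1 was called higher, against 1.56% of all tested genes, and 0 lower, against 0.658%, and a single gene is too few to read against these shares. At an unadjusted p under 0.05, 3 of the 9 passed, against 18.4% of all tested genes. The log2 fold change of FPKM + 1 was above 0 at 3 of the 9 genes and below 0 at 6, with a median of -0.33 against -0.10 for all tested genes.

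None of the invariant chain and classical chains passed the test. Their log2 fold changes were -0.33 for Cd74 (95% interval -1.30 to 0.64, limma adjusted p = 0.71), -0.61 for H2-Ab1 (-1.53 to 0.31, limma adjusted p = 0.444), -0.55 for H2-Eb1 (-1.47 to 0.37, limma adjusted p = 0.502) and -0.72 for H2-Aa (-1.92 to 0.49, limma adjusted p = 0.504). All 4 intervals reach from well below 0 to above it, so the data do not show that these levels were alike. The sign rested on KO 1, and for Cd74 also on WT 1 (0.0048 without it). Without KO 1 the values were 0.34, 0.055, 0.12 and 0.18, and without KO 2 they were -1.002, -1.28, -1.22 and -1.61, in the same order.

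H2-DMa, the alpha chain of the peptide exchange dimer, rose in KO. It stood at 5.70 and 7.35 FPKM (WT) against 20.2 and 29.7 FPKM (KO). Both KO libraries lay above both WT libraries, and KO 1, the lowest library for the classical chains, was well above WT. The mean went from 6.52 ± 1.16 FPKM (SD, n = 2) to 24.95 ± 6.66 FPKM (SD, n = 2), a ratio of 3.82 and a log2 fold change of 1.77 (SE 0.22, 95% interval 1.26 to 2.28, limma adjusted p = 0.0128). The call was lost with any 1 library left out (limma adjusted p from 0.0548 to 0.149, log2 fold change from 1.51 to 2.04) and with no filter on low genes (0.211).

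Relative to the summed B cell markers, H2-DMa was 0.0703 and 0.119 (WT) against 0.785 and 0.503 (KO). The part of these markers in its level was not tested. Its exons share 360 bases, none of them coding, with Brd2, a bromodomain gene on the opposite strand. Brd2 was listed at 4.2 and 5.87 FPKM (WT) against 3.43 and 0.898 FPKM (KO), and the sum of both genes was 9.90, 13.2, 23.7 and 30.6 FPKM in WT 1, WT 2, KO 1 and KO 2. Whether the authors' counting used strand is not given in the sources used here. None of the 28-base windows, about the length of a footprint, in the coding sequence of H2-DMa occurred in an annotated transcript of another gene on either strand.

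The beta chain of the same dimer exists in 2 copies, H2-DMb1 and H2-DMb2, and neither passed the test. H2-DMb1 stood at 1.77 and 0.603 FPKM (WT) against 0.494 and 1.17 FPKM (KO), with a limma adjusted p of 0.773 (log2 fold change -0.23, from -1.07 to 0.62 at 95%). H2-DMb2 stood at 2.46 and 0.67 FPKM (WT) against 0.915 and 2.72 FPKM (KO) (limma adjusted p = 0.889, log2 fold change 0.15, from -0.88 to 1.18). Both were higher in WT 1 and KO 2 than in WT 2 and KO 1, as the classical chains were.

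The coding sequences of the copies are 95.9% identical over 783 bases, and 62.8% of the 28-base windows of each occur in the other, so reads could be split between them. Their sum was 4.23 and 1.27 FPKM (WT) against 1.41 and 3.89 FPKM (KO). This sum holds if shared reads were divided between the copies, but not if such reads were dropped or counted at both. Which was done is not given. At the length of the main transcripts of the copies, the sums rest on roughly 36, 6, 12 and 16 reads in WT 1, WT 2, KO 1 and KO 2. A modest difference would not be detectable at this depth. The ratio of H2-DMa to the summed beta chains was 1.35 and 5.77 (WT) against 14.4 and 7.62 (KO).

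The chains of H2-DO, the dimer that restrains H2-DM, lay on opposite sides of WT. H2-Oa, the alpha chain, stood at 3.02 and 2.16 FPKM (WT) against 5.23 and 8.62 FPKM (KO), with both KO libraries above both WT libraries. Its log2 fold change was 1.12 (SE 0.26, 95% interval 0.52 to 1.73) with a limma adjusted p of 0.0844, which missed the threshold. Over its alternative settings that p ran from 0.0583 to 0.364. The values rest on about 19, 8, 33 and 28 reads in WT 1, WT 2, KO 1 and KO 2.

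H2-Ob, the beta chain, stood at 12.4 and 11.3 FPKM (WT) against 7.43 and 9.39 FPKM (KO). Both KO libraries lay below both WT libraries, but the log2 fold change of -0.46 (95% interval -0.86 to -0.06, limma adjusted p = 0.217) missed the threshold. Relative to H2-Ob, H2-Oa was 0.243 and 0.191 (WT) against 0.704 and 0.918 (KO). Of all tested genes, 16.3% had both KO libraries above both WT libraries and 34.6% had both below, against 2 and 1 of the 9 tested class II genes.

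H2-Oa shares 321 exon bases, 83 of them coding, with BC051537 on the opposite strand, and 7.88% of its coding windows occur in another gene. BC051537 was listed at 0.327 and 0 FPKM (WT) against 0.521 and 0.217 FPKM (KO). H2-Ob had no such window. Relative to the summed B cell markers, H2-Oa was 0.0372 and 0.0349 (WT) against 0.203 and 0.146 (KO), while H2-Ob was 0.153 and 0.183 (WT) against 0.288 and 0.159 (KO).

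**Figure D2:**
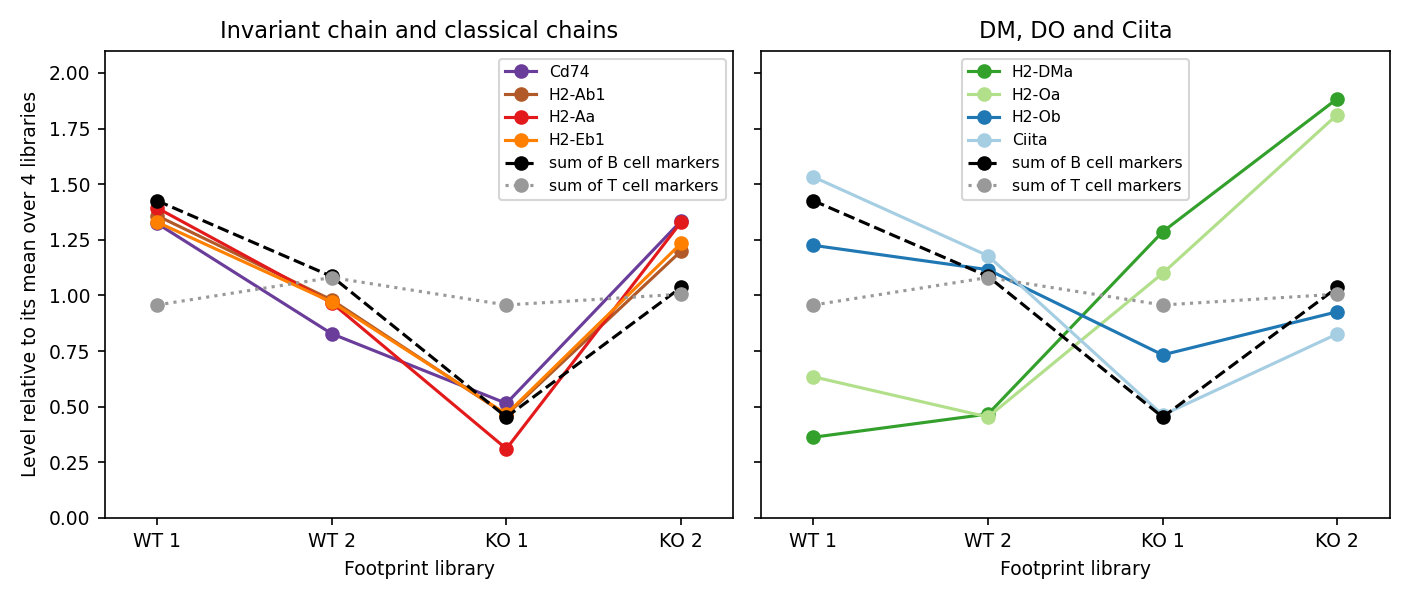
Level in each footprint library (horizontal axis) divided by the gene's or list's mean over the 4 libraries (vertical axis, no unit), for Cd74 and the classical chains (left) and for H2-DMa, H2-Oa, H2-Ob and Ciita (right), with the summed B cell markers (black, dashed) and T cell markers (grey, dotted). Lines join the points of 1 gene and imply no order of libraries. The chains on the left are lowest in KO 1, as the summed B cell markers are, and H2-DMa and H2-Oa on the right are above their mean in both KO libraries.

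Ciita, the co-activator of the set, on chromosome 16 at 10480059 to 10528418, was the lowest member by the mean over the libraries and fell under the filter on low genes. It stood at 1.27 and 0.972 FPKM (WT) against 0.381 and 0.683 FPKM (KO), and received no test. Both KO libraries lay below both WT libraries, as at 34.6% of all tested genes. The values rest on only about 31, 14, 9 and 8 reads in WT 1, WT 2, KO 1 and KO 2. Relative to the summed B cell markers, Ciita was 0.0156, 0.0157, 0.0148 and 0.0116 in the same order. These ratios span 1.36-fold, but at so few reads their closeness is uncertain. Its exons share 329 bases, 111 of them coding, with Dexi on the opposite strand, which was listed at 3.23 and 3.296 FPKM (WT) against 2.06 and 2.41 FPKM (KO).

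By the mean over the 4 libraries, the order of levels was Cd74 (59.9 FPKM), H2-Ab1 (48.6 FPKM), H2-Eb1 (24.6 FPKM), H2-DMa (15.7 FPKM), H2-Ob (10.1 FPKM), H2-Aa (9.64 FPKM), H2-Oa (4.75 FPKM), H2-DMb2 (1.69 FPKM), H2-DMb1 (1.01 FPKM) and Ciita (0.825 FPKM). Cd74 was above H2-Ab1, and H2-Ab1 above H2-Eb1, in every library. H2-Ob and H2-Aa changed places between libraries, and so did H2-DMa with its neighbours, being below H2-Ob in WT and above it in KO. The ranges over the 4 libraries of each gene and its neighbour in this order overlapped at every step. The order is one of FPKM and takes no account of how the coding share of a transcript differs between genes.

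The factors that act with Ciita at class II promoters showed no call. All 7 listed genes of the RFX, NF-Y and CREB families were tested, 0 passed the threshold in either direction or had an unadjusted limma p under 0.05, and their median log2 fold change was 0.0031. Creb1 averaged 12.6 FPKM (WT) against 11.9 FPKM (KO), Nfyc 11.3 and 9.51 FPKM, Nfyb 10.6 and 9.84 FPKM, and Rfxap, a subunit of the RFX complex, 7.48 and 7.57 FPKM. The largest size of change in this list by the fit was that of Nfyc (-0.23, limma adjusted p = 0.451).

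Interferon gamma is known to induce Ciita, in part through Irf1. Of the 11 listed genes of this route 10 were tested, with a median log2 fold change of 0.33. Of these, 2 were higher in KO and 0 lower, against 1.56% and 0.658% of all tested genes. Ifng, which encodes the cytokine, stood at 2.22 and 3.11 FPKM (WT) against 10.8 and 19.5 FPKM (KO) (log2 fold change 2.1, SE 0.28, limma adjusted p = 0.0151). Irf1, a transcription factor, stood at 105 and 97.2 FPKM (WT) against 184 and 183 FPKM (KO) (0.85, limma adjusted p = 0.0146). The calls of the route fell to 0 or 1 with any 1 library left out, with small RNA genes kept to 1, with no variance trend to 0, and with no filter on low genes to 0. The receptor chain Ifngr1 (31.5 FPKM in WT, 46.9 FPKM in KO, limma adjusted p = 0.112) and the kinase Jak1 (146 and 130.5 FPKM, limma adjusted p = 0.578) did not pass. Ciita itself, given above, received no test, and whether this route acts on it here was not tested.

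**Figure D3:**
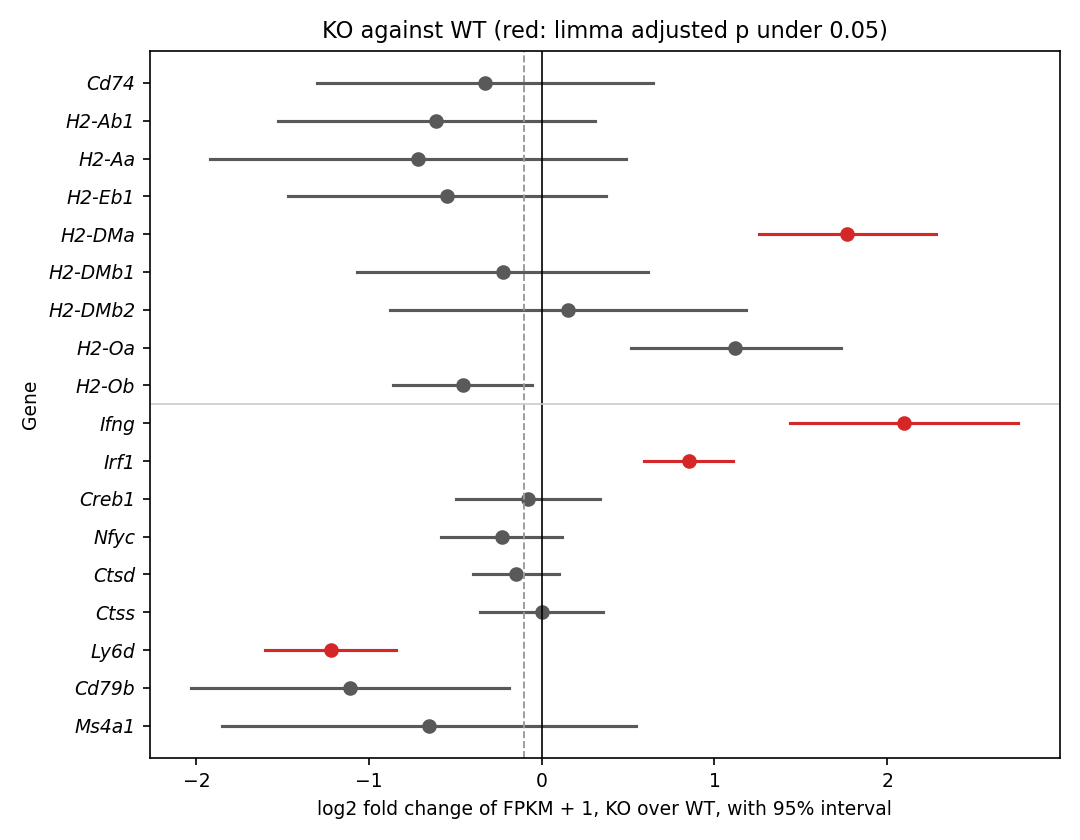
log2 fold change of FPKM + 1 in KO over WT (horizontal axis) with its 95% interval from limma, for the 9 tested class II genes (above the grey line) and genes of the interferon gamma route, the promoter factors, the proteases and B cell markers (below it), the dashed line being the median of all tested genes. H2-DMa is the 1 class II gene past the threshold (red), at 1.77, beside Ifng, Irf1 and, in the other direction, the B cell marker Ly6d.

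Genes that prepare the endosome for loading were also without a call. Of 12 listed proteases, inhibitors and the thiol reductase Ifi30, 11 were tested and 0 passed, 1 of them with an unadjusted limma p under 0.05, with a median log2 fold change of -0.11. The most abundant were the protease genes Ctsd (154 FPKM in WT, 139 FPKM in KO) and Ctss, whose product trims the invariant chain (92.8 and 92.1 FPKM), then the inhibitor gene Cst3 (26.8 and 24.8 FPKM) and Ctsz (20.0 and 18.7 FPKM). Their levels were well above those of H2-DMb1 and H2-DMb2 in all libraries. Of the ubiquitin ligases and Cd83, which act on class II turnover, Cd83 was the 1 of 3 tested (1.01 FPKM in WT, 1.14 FPKM in KO, limma adjusted p = 0.896, unadjusted p over 0.05). March1 was at 1.19 and 0.698 FPKM (WT) against 0.0452 and 0.773 FPKM (KO), lowest in KO 1 as the classical chains were, and March8 was under 0.1 FPKM in all libraries.

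Within the class II region the neighbours that serve class I held 2 called genes. Of 7 listed neighbours, not all of which serve class I, 5 were tested. Of these, 2 were higher in KO and 0 lower, against 1.56% and 0.658% of all tested genes. Brd2, given above, was not called (log2 fold change -1.04, limma adjusted p = 0.216). Tap2, a subunit of the peptide transporter of the class I route, stood at 42.6 and 44.5 FPKM (WT) against 78.1 and 76.97 FPKM (KO) (0.82, limma adjusted p = 0.0177), and its partner Tap1 at 35.9 and 45.0 FPKM (WT) against 69.4 and 71.2 FPKM (KO) (0.79, limma adjusted p = 0.0432). Psmb8, a subunit of the immunoproteasome, averaged 336 FPKM (WT) against 435 FPKM (KO) (limma adjusted p = 0.145) and Psmb9 had 22.1 and 25.7 FPKM. Both Tap calls were lost with no filter, with small RNA genes kept, with no variance trend and with any 1 library left out, and 1 of them with the replicate block. H2-Eb2, a further beta chain gene, was at 0.111 to 0.60 FPKM. Whether the neighbours differ from the classical chains was not tested.

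**Figure D4:**
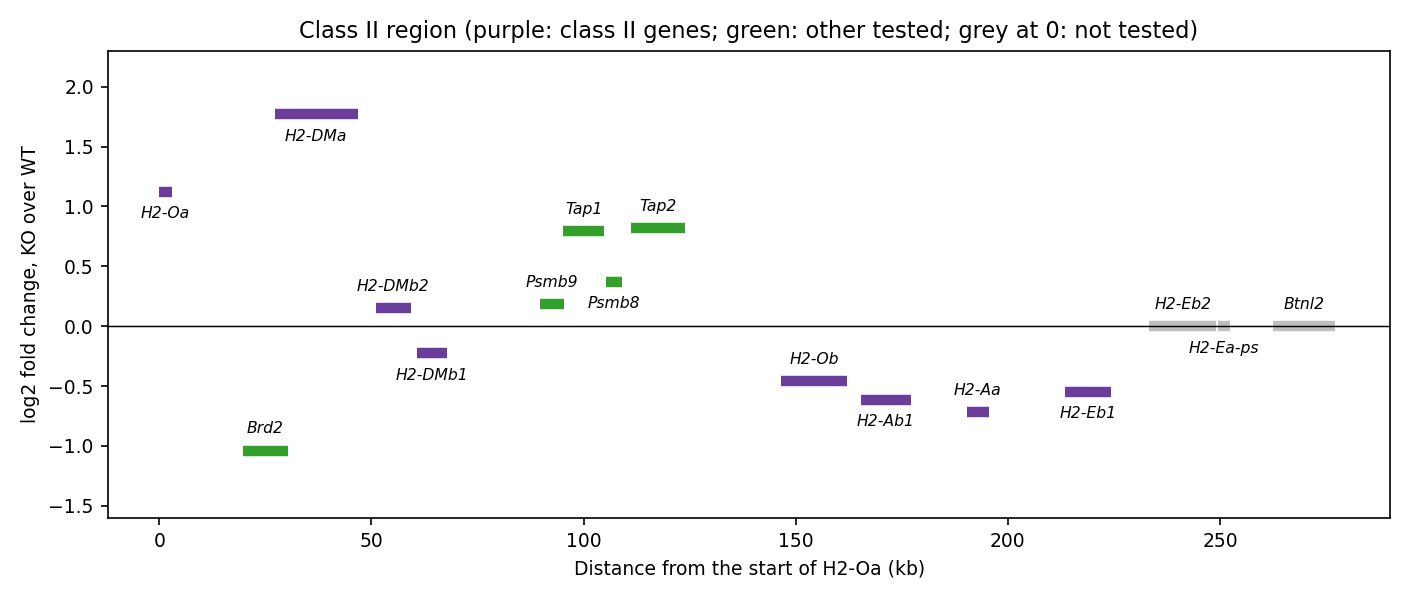
Map of the class II region, with distance from the start of H2-Oa in kb on the horizontal axis and the log2 fold change in KO over WT on the vertical axis, each bar being 1 gene at its annotated length (purple class II genes, green other tested genes, grey at 0 genes with no test). H2-DMa and H2-Oa at the left end are above 1, but beside them Brd2 is at -1.04, H2-DMb2 at 0.15 and H2-DMb1 at -0.23. Tap1 and Tap2 are near 0.8, and H2-Ob, H2-Ab1, H2-Aa and H2-Eb1 at the right are between -0.46 and -0.72.

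For scale, class I was far more abundant: H2-K1 stood at 834 FPKM in WT and 1180 FPKM in KO (0.50, limma adjusted p = 0.0488), H2-D1 at 362 and 438 FPKM, and B2m at 133 and 179.5 FPKM. Of these 3 genes 1 was called higher, against 1.56% of all tested genes. That call was lost in 9 of 13 alternative settings, among them any 1 library left out.

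Markers of other cells that could carry class II were compared beside these values. Of 15 tested B cell markers 0 were higher and 1 lower in KO, against 1.56% and 0.658% of all tested genes. Their median log2 fold change was -0.33. The lower one, Ly6d, went from 16.5 to 6.53 FPKM (-1.22, limma adjusted p = 0.015). Cd79b, a signalling chain of the B cell receptor, was at 11.4 and 9.60 FPKM (WT) against 2.34 and 7.47 FPKM (KO) (limma adjusted p = 0.2), Pou2af1 at 8.02 FPKM in WT and 3.14 FPKM in KO (limma adjusted p = 0.054), and Cd72 at 6.82 and 3.29 FPKM (limma adjusted p = 0.118).

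Defining markers of dendritic cells were close to 0: Flt3, Zbtb46 and Clec9a were at most 0.326 FPKM in any library, and Xcr1 at most 0.902 FPKM. Of 6 tested genes of that list 0 were called by limma and 0 had an unadjusted p under 0.05, and the most abundant, Ccr7 (109 to 126 FPKM), Cst3, Ly75 (10.6 and 10.3 FPKM) and Siglech (4.38 and 4.03 FPKM), include genes that T cells also express. The list summed to 157, 155, 168 and 158 FPKM in WT 1, WT 2, KO 1 and KO 2. The myeloid list summed to 118, 139, 116 and 116 FPKM, most of it from Ctss. Of 6 tested myeloid genes 1 was lower, against 0.658% of all tested genes, the adaptor gene Tyrobp (5.77 to 0.855 FPKM, limma adjusted p = 0.0168). Lyz2 had 16.4 and 13.2 FPKM, and Ly86 had 6.42 and 4.92 FPKM (WT) against 1.54 and 5.59 FPKM (KO).

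The NK list summed to 21.1, 29.2, 25.2 and 33.4 FPKM, with 1 of 6 tested genes lower, against 0.658% of all tested genes. This was Klrd1 (9.04 to 2.22 FPKM, limma adjusted p = 0.01). The median log2 fold change of the NK list was 0.42, with 4 of the 6 tested genes above 0. An unadjusted limma p under 0.05 was found at 4 of the 6, in both directions. Nkg7 had 5.62 and 13.6 FPKM, Eomes 2.61 and 4.003 FPKM, and Prf1 2.70 and 3.74 FPKM. Ncr1 was listed at 0 in all libraries. Of 16 tested T cell genes 0 were called by limma and 6 had an unadjusted p under 0.05, with a median of -0.30. Lck had 184 and 159 FPKM, Cd2 165.5 and 145 FPKM, and Il7r 102.5 and 169 FPKM. The CD8 genes had 1 of 2 tested and 0 called, also at an unadjusted limma p under 0.05. The calls of Ly6d and Klrd1 were lost with any 1 library left out, and that of Tyrobp with WT 2, KO 1 or KO 2 left out or small RNA genes kept. All 3 were lost with no filter on low genes. The part of any of these cells in the class II levels was not tested.

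The genes whose pattern over the 4 libraries was most like the mean of Cd74, H2-Aa, H2-Ab1 and H2-Eb1 were sought by the distance between centred log2(FPKM + 1) profiles, among 5544 genes whose mean reached 5 FPKM. The 10 nearest were Zc3h14 (distance 0.406), Dnajc4, Mzb1 (0.436), Ahcyl2, Clk1, Stk16, Plp2, Nip7, Eif4ebp3 and Nabp1 (0.58). Mzb1 is known from marginal zone B cells and plasma cells. Of the B cell list only Ly6d, Cd79b, Pou2af1 and Cd72 reached that mean, and none of these 4 was among the 10. Within the set itself, H2-Eb1 was at a distance of 0.10 and H2-Aa of 0.292 from this profile, to which they contribute, H2-DMb1 at 0.747, H2-Ob at 0.862, H2-Oa at 1.78 and H2-DMa at 2.48. Cd79b was at 0.597, Cd72 at 0.745, Pou2af1 at 1.01 and Ly6d at 1.17. Ms4a1, whose mean was too low for the search, was at 0.285. No distance was taken for the other B cell markers below that mean. Among these, Cd22, Fcer2a, Cd79a, Blnk and Fcrla were lowest in WT 2, and Vpreb3 was listed at 0 in both WT 2 and KO 1. Of all 21 listed markers, 14 were lowest in KO 1. A gene with no change over the libraries would be at 1.22. The comparison rests on 4 libraries.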

How the data were processed

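Ribosome footprints of naive CD4+ T cells were sequenced by the study, and its 4 footprint libraries, 2 per genotype, were grouped by their titles. Per the file headers, the deposited table holds FPKM, 1 column per library. Per the submitters' processing notes, TopHat, Cuffdiff and mm10 (GRCm38) were used. Annotation, use of strand and treatment of multiply mapping reads were not given in the sources used here. The table held no input RNA, so translational efficiency was not tested.

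Small RNA genes (1215 by symbol) and genes with a mean under 1 FPKM were left out, which left 9271. Values were taken as log2(FPKM + 1), which understates changes of low genes, and KO was set against WT by the two-sided test of limma (version 3.58.1, under R 4.3.3, moderated with a variance trend, 2 residual and 5.2 prior degrees of freedom), with Benjamini-Hochberg adjustment over all genes and a threshold of 0.05. Intervals are at 95%. The fit was tested on simulated data. The read depth was estimated from the most frequent low FPKM times length among 5250 genes with 1 annotated transcript, and reads behind a value from the longest coding transcript, so both are approximate. Exon overlaps, coordinates and 28-base windows come from GENCODE M21, identities from Biopython 1.88, promoters from RefSeq. Tables were handled in pandas 2.3.3 and numpy 2.4.6 under Python 3.11.15, and plots drawn in matplotlib 3.10.9.

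Members, gene lists and tests were chosen with earlier results of these data known. Named genes are all members, the 4 most abundant and all called genes of each list, and the 10 genes of most similar profile, except some that are not reported here, 1 of which was also left out of the interferon gamma list. Ms4a1, Pax5, Ncr1, Cd4, Cd8a, the dendritic markers and overlapping genes were named besides. Of the markers listed, Ighm, Ighd, Igkc, Trac, Trbc1 and Trbc2 were not analysed here. Alternatives changed the pseudocount, filter, scaling, small RNA genes, variance trend, replicate block and each library.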

Additional observations from a re-analysis of the deposited data

How the results depend on the processing

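Of the 9 tested class II genes, H2-DMa alone passed the threshold, and it did so in 8 of 13 alternative settings, with a log2 fold change of 1.36 to 2.04 and a limma adjusted p of 0.00478 to 0.211 over all of them. The number of class II genes called was 0 with no filter on low genes (3 at an unadjusted p under 0.05) and 0 to 0 (2 to 7) with 1 library left out, and 1 in the other settings. H2-Oa (0.64 to 1.43) and H2-Ob (-0.61 to -0.31) kept their sign and stayed uncalled in every setting that tested them. With 1 library left out, the log2 fold change ran from -1.002 to 0.34 for Cd74, from -1.61 to 0.18 for H2-Aa, from -1.28 to 0.055 for H2-Ab1, from -1.22 to 0.12 for H2-Eb1, from -0.62 to 0.17 for H2-DMb1 and from -0.37 to 0.68 for H2-DMb2, so their signs turned. Other settings turned no sign of these 6 genes. Over all genes, 206 passed the threshold, 145 higher and 61 lower in KO. There were 0 with no filter (limma, 2061 at an unadjusted p under 0.05), 83 with small RNA genes kept, 68 with no variance trend and 1 to 57 with 1 library left out, each such fit assuming that the lone library varies like the other genotype. Centring libraries on their medians moved the median of all genes from -0.10 to -0.0084. The replicate numbers were not shown to pair libraries (correlation of same-numbered deviations -0.0927). With the replicate block 170 genes passed, and H2-DMa had a limma adjusted p of 0.00876. Depth limits H2-DMb1, H2-DMb2, H2-Oa and Ciita most, and FPKM carries no counting error of its own.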
